A study of Caenorhabditis elegans with 2 samples.

Results

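The 8 genes cct-1 to cct-8 encode the subunits of the cytosolic chaperonin CCT in Caenorhabditis elegans. They were taken by name from the WBcel235 gene models, where each name matched 1 of 19973 protein-coding genes on the nuclear chromosomes. The question was whether and where the tagged protein MCD-1 was recovered at these genes. Chromatin immunoprecipitation followed by sequencing (ChIP-seq) had been carried out with an anti-GFP antibody on whole young adults aged 65 hours, grown from bleached and starved L1 larvae. In their strain, RW12215, CRISPR had inserted TY1::EGFP::3xFLAG into the endogenous mcd-1 gene (allele st12215), so every sample carries the tag. The data are 2 biological replicates of 1 group, with no other genotype, treatment or stage. Whole animals were used, so a site occupied in a few cells and a site occupied weakly in many cannot be told apart. A control experiment that the labels point to was not analysed here.

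CCT is a double ring built from 8 related subunits, which takes unfolded proteins into its cavity and folds them in cycles driven by ATP. Its best known clients are actin and tubulin, which a smaller chaperone, prefoldin, can hand over to it. Each subunit holds a fixed place in the ring. The immunoprecipitated protein takes its gene's name from a role as modifier of cell death.

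At 6 of the 8 genes (75%) a summit of the authors' conservative peak list lay in the promoter window, which reached 1000 bp upstream of the annotated 5′ end and 200 bp into the gene. Over all protein-coding genes the share was 13.2%. The 6 genes were cct-1, cct-2, cct-3, cct-6, cct-7 and cct-8, each with 1 summit in its window, whereas cct-4 and cct-5 had none. The conservative signal of these peaks differed 39.9-fold, from 3669 at cct-1 to 92 at cct-3. Signal is the authors' own enrichment value for a peak, and the sources used here do not give its scaling. The 8 genes were chosen with earlier results of these data known, so the count is a description and was not tested.

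The DNA at the peaks is shown because the 6 sites, alike in the role of their genes, differed in base composition. Each line gives the summit base with 50 bases on either side, taken from RefSeq's WBcel235 sequence (ce11) and read 5′ to 3′ on the strand of the cct gene, in order of decreasing signal, with every CG dinucleotide in capitals. The window of cct-6 is instead centred 57 bp from the summit, towards cct-6, so that it stays off the 5′ untranslated region of alh-9.
cct-1 (chrII:8185150-8185250, plus strand): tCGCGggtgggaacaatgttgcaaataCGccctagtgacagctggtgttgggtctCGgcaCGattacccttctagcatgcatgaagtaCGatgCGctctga
cct-8 (chrIV:1094303-1094403, minus strand): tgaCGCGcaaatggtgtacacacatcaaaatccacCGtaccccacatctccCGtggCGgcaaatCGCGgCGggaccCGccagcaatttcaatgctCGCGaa
cct-7 (chrV:1871924-1872024, plus strand): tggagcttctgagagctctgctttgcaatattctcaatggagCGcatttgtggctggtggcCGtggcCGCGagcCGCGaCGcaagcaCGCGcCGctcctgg
cct-2 (chrII:8927379-8927479, plus strand): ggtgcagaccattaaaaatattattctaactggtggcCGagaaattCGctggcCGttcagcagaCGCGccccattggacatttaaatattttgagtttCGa
cct-6 (chrIII:5855917-5856017, minus strand): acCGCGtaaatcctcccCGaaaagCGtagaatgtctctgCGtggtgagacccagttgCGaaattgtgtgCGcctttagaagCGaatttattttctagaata
cct-3 (chrII:2232552-2232652, plus strand): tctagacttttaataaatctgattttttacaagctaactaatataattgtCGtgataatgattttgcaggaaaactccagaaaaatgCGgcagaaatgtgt

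The windows of the 3 strongest peaks were GC-rich, with a GC content of 53.5% at cct-1, 57.4% at cct-8 and 62.4% at cct-7. At the summits of cct-2, cct-6 and cct-3 it was 43.6%, 40.6% and 29.7%. The median was 47.5% over the 2102 conservative peaks with a summit in a promoter window, here called promoter peaks. Windows of the same length centred at -175 bp from every protein-coding 5′ end, the median position of promoter peak summits, had a median GC content of 33.7%. The CG dinucleotides in capitals numbered 7 at cct-1, 11 at cct-8, 10 at cct-7, 6 at cct-2 and 2 at cct-3. The shifted window printed for cct-6 held 8, with a GC content of 45.5%, and the window at its summit held 6. The median over promoter peaks was 7. The window of cct-3 was thus poorer in GC than all but 1.47% of promoter peaks, while that of cct-7 was richer than 96.7% of them. The window of cct-3 is centred on the conservative summit. Replicate 1's own summit, at -949 bp from cct-3, lay inside it, and that of replicate 2, at -855 bp, outside it.

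**Figure D1:**
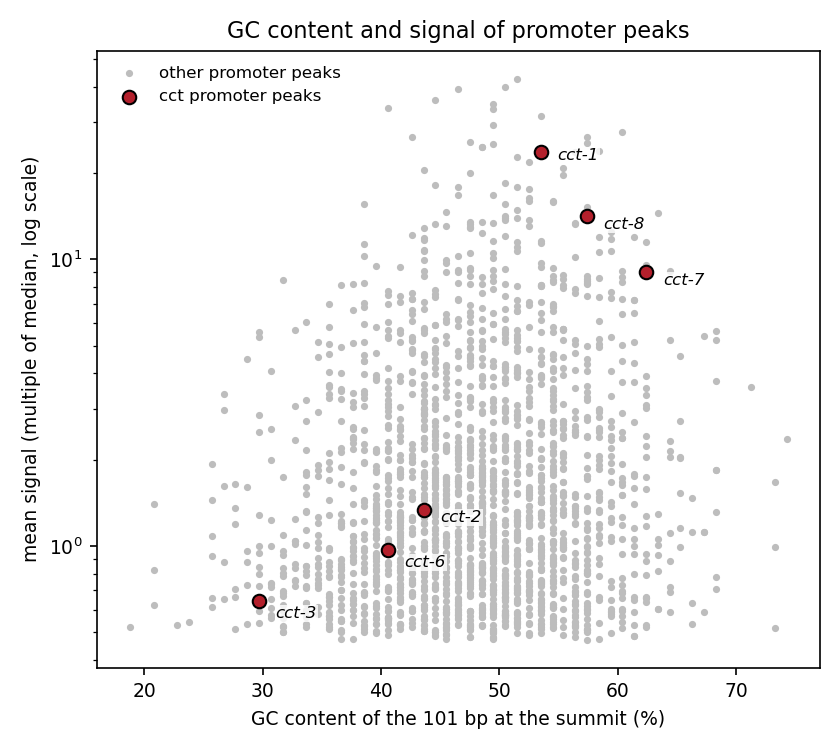
Mean signal of each promoter peak on a log scale, as a multiple of the median conservative peak, against the GC content (%) of the window at its summit. The cct peaks are in red and all other promoter peaks with a value in both replicates in grey; cct-1, cct-8 and cct-7 lie to the upper right, and cct-2, cct-6 and cct-3 lie lower and further left.

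Ordered by signal into 4 groups of like size, all promoter peaks had a median GC content of 49.5% in the strongest group and 48%, 47.5% and 47.5% in the following groups. Their median number of CG dinucleotides was 8, 8, 7 and 6 in the same order. GC content can affect amplification and sequencing, and its part in the signals was not tested.

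Short motifs were looked for on both strands of the windows at the summits. GAGCG, a word that an earlier look at these data had singled out, was found at cct-1 and cct-7 (2 of 6 windows). It was present in 36.3% of promoter peaks and in 6.43% of the windows upstream of all protein-coding genes. Since the word came from these data, these shares do not test it. In the lines above it occupies bases 94 to 98 of cct-1, as its reverse complement CGCTC, and bases 40 to 44 of cct-7, with a reverse complement at bases 93 to 97. TTTGAA, a form of the CHR element bound by the DRM complex, was found at cct-6, outside the stretch shown, and in 20.6% of promoter peaks and 29.6% of all promoters. The other CHR form, TTCGAA, was found at 0 of 6 sites, and in 6.37% of promoter peaks and 6.68% of all promoters. The E2F core words GCGGGAA and GCGCGAA were at 0 of 6 sites, and in 4.19% and 5.33% of promoter peaks and 1.19% and 0.791% of all promoters. The heat shock element GAANNTTC, where N is any base, was at 0 of 6 sites, in 4.57% of promoter peaks and in 6.3% of all promoters. The windows of promoter peaks and of all promoters also differed in median GC content, 47.5% against 33.7%. Its part in the shares of the motifs was not tested. A match is a description of the letters and does not show a binding site.

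The peak of cct-1, which encodes the alpha subunit, was the strongest of the family. The gene (WBGene00000377) lies on chromosome II from 8185443 to 8187601 on the plus strand, and its peak spanned 8184986 to 8185419. The signal was 2265 in replicate 1 and 1422 in replicate 2. To compare the replicates, each value was divided by that replicate's median over the conservative peaks, 87.3 and 66.7. The multiples at cct-1 were 26 and 21.3 (mean 23.6 ± 3.28 SD, n = 2), and the conservative peak ranked 24 of 3903. The replicate summits lay close together, at -244 and -232 bp from the 5′ end, where negative values are upstream. The summit stood in the gap of 419 bp between cct-1 and mig-5, a Dishevelled gene of Wnt signalling, and was nearer to mig-5, at -177 bp from its 5′ end.

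The peak of cct-8, the gene of the theta subunit, came next. The gene (WBGene00021934) lies on chromosome IV from 1087108 to 1093920 on the minus strand, and the peak spanned 1094156 to 1094557. Signals were 1264 and 920, which are 14.5 and 13.8 times the median (mean 14.1 ± 0.491 SD, n = 2), at rank 58. Both replicates thus gave nearly the same multiple. The summit lay at -433 bp from cct-8 and at -188 bp from the divergent gene Y55F3AR.2. It fell in the intergenic gap of 620 bp.

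The eta subunit gene cct-7 (WBGene00020391) lies on chromosome V from 1872246 to 1875505 on the plus strand. Its peak, from 1871746 to 1872158, had signals of 765 and 616. Relative to the median these were 8.77 and 9.24 (mean 9 ± 0.329 SD, n = 2), so that replicate 2 was the higher here, alone among the 6 peaks. The rank was 130. The conservative summit lay at -272 bp from cct-7 and at -167 bp from T10B5.4, in intergenic sequence. The summits of both replicates, at -261 and -263 bp, fell inside the noncoding RNA gene T10B5.13, which the printed window overlaps.

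The remaining peaks were of ordinary strength. At cct-2 (WBGene00000378, beta subunit; II, 8927741 to 8929815, plus strand) the signals of 125 and 83 were 1.44 and 1.24 times the median (mean 1.34 ± 0.136 SD, n = 2). In the conservative list this peak was the narrowest of the family, 153 bp from 8927377 to 8927529. It was wider in the lists of the single replicates, from 8927259 to 8927618 in replicate 1 and from 8927254 to 8927597 in replicate 2. It was the only one of the 6 whose summit was nearest to the cct gene itself, at -312 bp. At cct-6 (WBGene00000381, zeta subunit; III, 5853530 to 5855687, minus strand) the signals of 93.4 and 57.4 were 1.07 and 0.86 times the median (mean 0.965 ± 0.149 SD, n = 2). That peak, from 5855839 to 5856208, had its summit at -337 bp from cct-6. The summit stood at 6 bp inside the 5′ untranslated region of alh-9, a gene of the aldehyde dehydrogenase family. Replicate 1's own summit lay there too, at 5 bp, but that of replicate 2 was intergenic, at -25 bp from alh-9. The median promoter peak stood at 1.28, so cct-2 lay just above it and cct-6 below it.

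The weakest promoter peak was that of cct-3 (WBGene00018782, gamma subunit; II, 2233540 to 2243539, plus strand). It spanned 2232417 to 2232786, with signals of 60.3 and 39.7, or 0.691 and 0.595 times the median (mean 0.643 ± 0.0683 SD, n = 2), at rank 3017 of 3903. Its summit was the farthest from its gene, at -938 bp, and lay at -132 bp from F54A3.6 on the other side of a gap of 1069 bp. The peak had a score of 1000, the maximum, in the conservative list, but 55 and 734 in the lists of the single replicates, whose threshold is 830. The score follows the irreproducible discovery rate (IDR), an estimate of how many peaks down to a given rank fail to repeat. Neither replicate's own thresholded list therefore holds it.

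**Figure D2:**
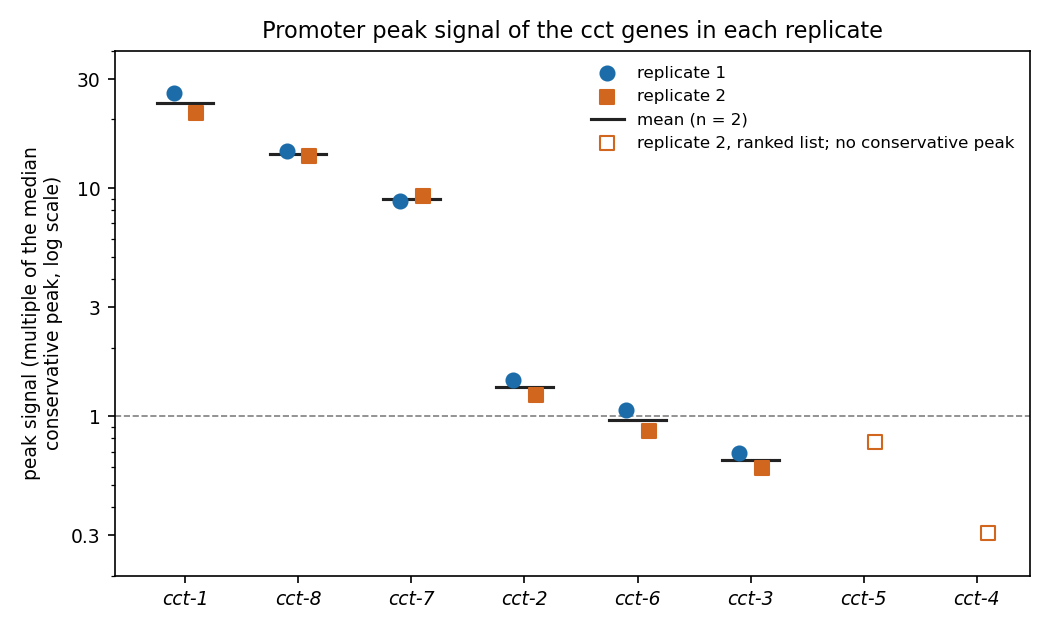
Signal of the promoter peak of each cct gene in each replicate (points) and their mean (bar, n = 2), as multiples of the median conservative peak on a log scale; the dashed line marks the median. Open squares show the strongest entry in the window in replicate 2's ranked list for cct-5 (0.768) and cct-4 (0.309), which have no conservative promoter peak; replicate 1 lists none in those windows.

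The order of the 6 peaks, cct-1, cct-8, cct-7, cct-2, cct-6 and cct-3, was the same in each replicate, and no neighbouring pair in it had overlapping replicate values. The closest pairs were cct-2 and cct-6, at no less than 1.24 against no more than 1.07, and cct-6 and cct-3, at 0.86 against 0.691. The widest step was that between cct-7 and cct-2, a ratio of means of 6.72. Likeness of the replicates is in part built in, since the conservative list was selected for it. Between replicates the log2 ratio of the multiples had an SD of 0.53 over 2084 promoter peaks, and 4.75% of them differed more than 2-fold. For the cct peaks the log2 ratio of replicate 1 over replicate 2 ran from -0.07 at cct-7 to 0.32 at cct-6.

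**Figure D3:**
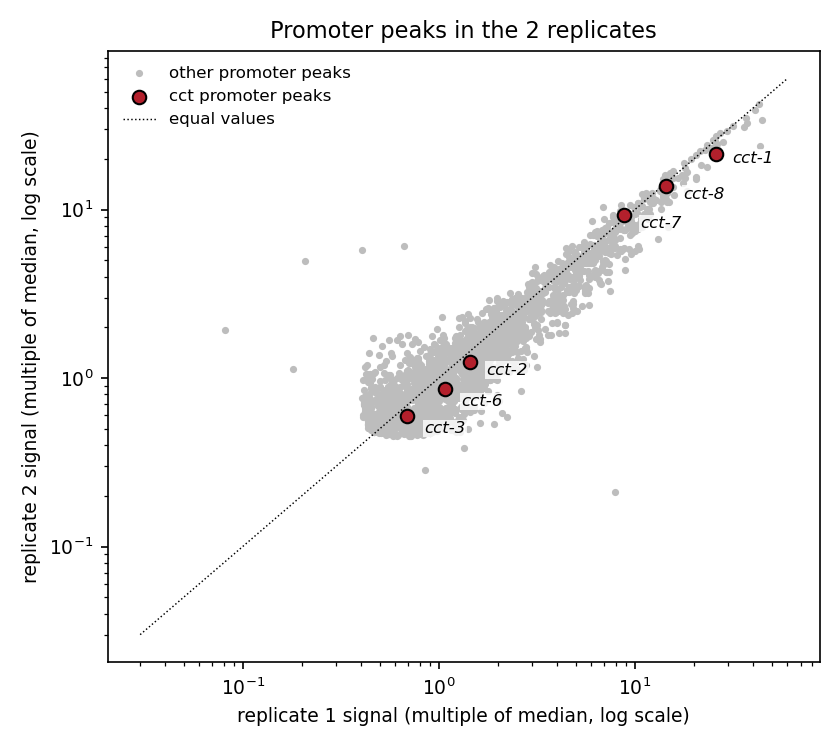
Signal in replicate 2 against replicate 1 for promoter peaks, both as multiples of the replicate's median and on log scales; the dotted line marks equal values. The cct peaks (red) lie close to the line, from 0.691 and 0.595 at cct-3 to 26 and 21.3 at cct-1.

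The delta subunit gene cct-4 (WBGene00000379; II, 8283667 to 8285711, plus strand) had no summit in its window in any of the 4 thresholded lists. It shares a gap of 458 bp with nst-1, a nucleostemin gene, a gap close in size to those of cct-1 and cct-7. The ranked list behind the conservative list holds 55700 entries down to a score of 39. In it the window held a single entry, at -757 bp with a signal of 13.3 and that lowest score. This entry lay outside the gap, in a coding exon of nst-1 at 298 bp from its 5′ end. Just past the window, at 243 bp inside the first part of cct-4, the same list had an entry with a signal of 43.7. Replicate 1 listed nothing in the window and replicate 2 a strongest entry of 20.6, which is 0.309 times its median, at 21 bp. The only thresholded peak within 2000 bp of cct-4 was in the pooled list, from 8285845 to 8286214 with a signal of 78.1, its summit 319 bp past the 3′ end. It was paired with an entry of 0.48 times the median in replicate 2 and with none in replicate 1.

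For cct-5, the epsilon subunit gene (WBGene00000380; III, 4499188 to 4508114, minus strand), the replicates differed. Replicate 2's own thresholded list had a peak from 4508397 to 4508740 with a signal of 51.3, or 0.768 times the median, and its summit at -455 bp, in the gap of 740 bp before F25F2.1. Replicate 1 had no entry in the window, even in its ranked list of 46845, and neither had the ranked list behind the conservative list. Within the gene, the pooled list held a peak in an intron, from 4504365 to 4504734, with a signal of 71.4 and its summit 3564 bp downstream of the 5′ end. It stood at 0.546 and 0.446 times the median in the replicates (mean 0.496 ± 0.0705 SD, n = 2). Its score in the ranked list behind the conservative list was 810, just under the threshold of 830. Replicate 2 also listed a pair of overlapping peaks in the gene, with signals of 36.2 and 3.78 and a score of 843 each.

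All 8 cct genes stand head to head with another protein-coding gene. In each case the nearest gene upstream lies on the opposite strand with its 5′ end within 2000 bp, an arrangement of 25.8% of all protein-coding genes. The gaps between the paired 5′ ends ran from 330 bp, between cct-6 and alh-9, to 1189 bp, between cct-2 and B0457.2. Of the 5146 genes with such a neighbour 26.4% had a conservative summit in the window, against 13.2% of all genes and 6 of the 8 cct genes. All 6 cct summits also lay in the window of the neighbour, as did 30.3% of promoter peaks in windows of genes on both strands. Promoter peaks of that kind had a median signal of 1.77 times the median conservative peak and the others 1.13.

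**Figure D4:**
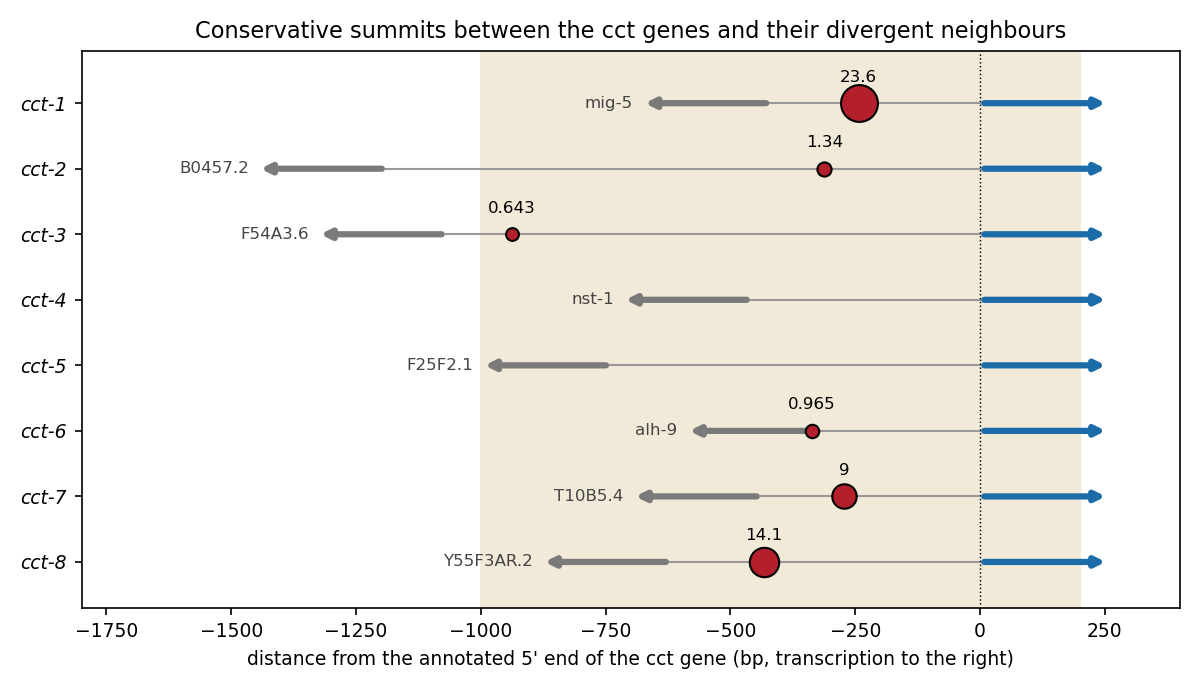
Position of the conservative summits (red, area growing with the mean signal, given above each as a multiple of the median) between each cct gene (blue arrow) and its divergent neighbour (grey arrow), in bp from the annotated 5′ end of the cct gene. The shaded band is the promoter window, and the rows of cct-4 and cct-5 are empty. Of the 6 summits 5 lie nearer to the neighbour. Over promoter peaks in windows of genes on both strands, 51.8% of gene and peak pairs had the summit nearer to another gene.

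With each summit given only to the gene whose 5′ end is nearest, 1 of the 8 cct genes, cct-2, had a conservative promoter peak, against 9.71% of all protein-coding genes. The nearest 5′ ends of the other 5 were those of mig-5, Y55F3AR.2, T10B5.4, alh-9 and F54A3.6. Over promoter peaks in windows of genes on both strands, the summit was nearer to another gene in 684 of 1320 gene and peak pairs (51.8%). Peaks that lie in the windows of both genes do not by themselves show which gene of the pair they belong to. Many worm transcripts are also trans-spliced, so that the annotated 5′ end can lie downstream of the true start of transcription. With a window reaching only 500 bp upstream, cct-3 dropped out and 5 of 8 genes had a summit, against 10.7% of all genes. Reaching 2000 bp upstream left the count at 6, against 16.5%. Peaks at or above the median conservative signal stood at 5 of the 8 genes, against 9.01% of all genes.

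The separate lists of the replicates gave nearly the same genes. Replicate 1's own list had a summit in the window of 5 of 8 genes, against 12.4% of all genes, and these were cct-1, cct-2, cct-6, cct-7 and cct-8. Replicate 2's list had the same 5 and cct-5, 6 of 8, against 10.8%. The pooled list had the 6 of the conservative list, against 14.4% of all genes. So cct-1, cct-2, cct-6, cct-7 and cct-8 had a promoter summit in all 4 thresholded lists, cct-3 in 2, cct-5 in 1 and cct-4 in 0.

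Within 2000 bp of the genes, the conservative list held 12 peaks at 6 of 8 genes, against 25.4% of all protein-coding genes, and the pooled list 14 peaks at 8 of 8, against 27.8%. Replicate 1's own list had such peaks at 5 genes (23.3% of all genes) and that of replicate 2 at 6 (21.4%). The 6 conservative peaks outside the promoter windows lay around cct-2 and cct-7. Downstream of cct-2 a summit stood 73 bp inside mrpl-50, a mitochondrial ribosomal protein gene, at 0.738 ± 0.129 times the median (SD, n = 2). Further on came a summit 17 bp inside enol-1, the enolase gene, at 0.535 ± 0.029, and one in an intron of enol-1 at 0.512 ± 0.0109. These 3 were below the promoter peak of cct-2 itself in both replicates.

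Around cct-7, the strongest of the other peaks (V, 1875617 to 1875811) had a signal of 217 and lay 210 bp past the 3′ end of cct-7, in the 3′ untranslated region of zig-11, which ends towards cct-7. At 1.53 and 1.28 times the median (mean 1.4 ± 0.171 SD, n = 2) its replicate values overlapped those of the promoter peak of cct-2. A summit in a coding exon of cct-7, 2851 bp from the 5′ end, gave 0.538 ± 0.134, and one in a coding exon of T10B5.4 gave 0.579 ± 0.0024. In the ranked list behind the conservative list, the 8 genes and their flanks held 103 entries, from 4 at cct-1 to 23 at cct-5. This was 0.649 entries per kb at cct-1, 1.66 at cct-8, 1.79 at cct-7 and 1.15 to 1.78 at the other 5, against 0.555 per kb over the nuclear genome. The 3 genes with the strongest peaks thus included both the lowest and the highest number of entries per kb. At the genes an entry reaching over the edge of the flanks counted in full, while the genome value takes all entries over all bases. A value by the same rule over all protein-coding genes is not given here.

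Over the 1541 other promoter peaks with a gene symbol, those most like the cct-1 peak in the log2 multiples of the 2 replicates were at mtcu-2 (distance 0.10), rps-15 (0.16) and tasp-1 (0.16). The peak of mtcu-2 stood at 26.6 and 22.7 times the median, that of the ribosomal protein gene rps-15 at 25.4 and 23.7, and that of tasp-1 at 24.2 and 23.3. With 1 condition this likeness compares levels only.

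Prefoldin, which delivers clients to CCT, had a conservative promoter summit at 4 of its 6 genes, against 13.2% of all protein-coding genes. They were pfd-3 (2.94 ± 0.00109 times the median, SD, n = 2), pfd-1 (2.56 ± 0.814), pfd-6 (2.29 ± 0.493) and pfd-5 (0.92 ± 0.378). The genes pfd-2 and pfd-4 had none. The prefoldin peaks with a summit spanned 0.92 to 2.94 times the median, within the wider span of 0.643 to 23.6 at the cct genes. The summit of pfd-1 was nearer to F01G4.6.

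Among the client genes, 3 of 5 actin genes had a summit, against 13.2% of all protein-coding genes. They were act-2 (6.81 ± 0.794), act-4 (0.886 ± 0.26) and act-1 (0.687 ± 0.344, with 0.444 in replicate 1 and 0.93 in replicate 2). In the list of replicate 1 alone 1 of 5 had one, against 12.4% of all genes, and in that of replicate 2 alone 3 of 5, against 10.8%. The summits lay between -548 and -48 bp. Actin genes are close copies of each other, and how reads shared between copies were counted is not given in the labels, so these values are uncertain. Of 16 tubulin genes 5 (31.2%) had one, against 13.2% of all protein-coding genes. The beta-tubulin gene tbb-1 gave 13.1 ± 1.3 in a peak nearer to rib-2, and the alpha-tubulin gene tba-2 gave 7.28 ± 0.921. The gamma-tubulin gene tbg-1 (1.86 ± 0.402, nearer to rpac-19), tbb-2 (0.602 ± 0.257) and tba-1 (0.557 ± 0.0552) were lower. The 11 tubulin genes without a summit included mec-7 and mec-12, known for touch receptor neurons.

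Of 17 other chaperone and co-chaperone genes 12 (70.6%) had a promoter summit, against 13.2% of all protein-coding genes. When each summit counted only for the nearest gene 8 did, against 9.71%. Over the 6 cct peaks the median signal was 5.17 times the median conservative peak. No cct peak stood near that value, which fell between cct-7 (9) and cct-2 (1.34). The 12 peaks of the other chaperones had a median of 7.72, against 1.28 over all promoter peaks. The strongest were the J-domain gene dnj-13 (19.7 ± 0.544), the Hsp70 co-chaperone gene bag-1 (16.7 ± 1.77) and hsp-110 (15.6 ± 3.9), whose peak lies nearer to the proteasome gene rpn-3. The Hop gene sti-1 gave 13.3 ± 0.233, and hsp-60, which encodes the chaperonin of mitochondria, gave 13.2 ± 0.381 in a peak nearer to Y22D7AL.10. Between these and the weakest came dnj-12 (9.74 ± 1.41), dnj-19 (5.71 ± 0.417, nearer to nhr-47), the cytosolic Hsp70 gene hsp-1 (4.7 ± 0.022), hsp-3 (4.6 ± 0.559) and the myosin chaperone gene unc-45 (3.4 ± 1.09). The mitochondrial Hsp70 gene hsp-6 (1.75 ± 0.338, nearer to C37H5.5) and the endoplasmic reticulum Hsp70 gene hsp-4 (1.38 ± 0.0939) were lowest. The conservative list had no summit at hsp-90, cdc-37, chn-1, hip-1 or hsf-1, the gene of the heat shock factor. The pooled list had a summit at 13 of the 17 genes, against 14.4% of all genes.

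**Figure D5:**
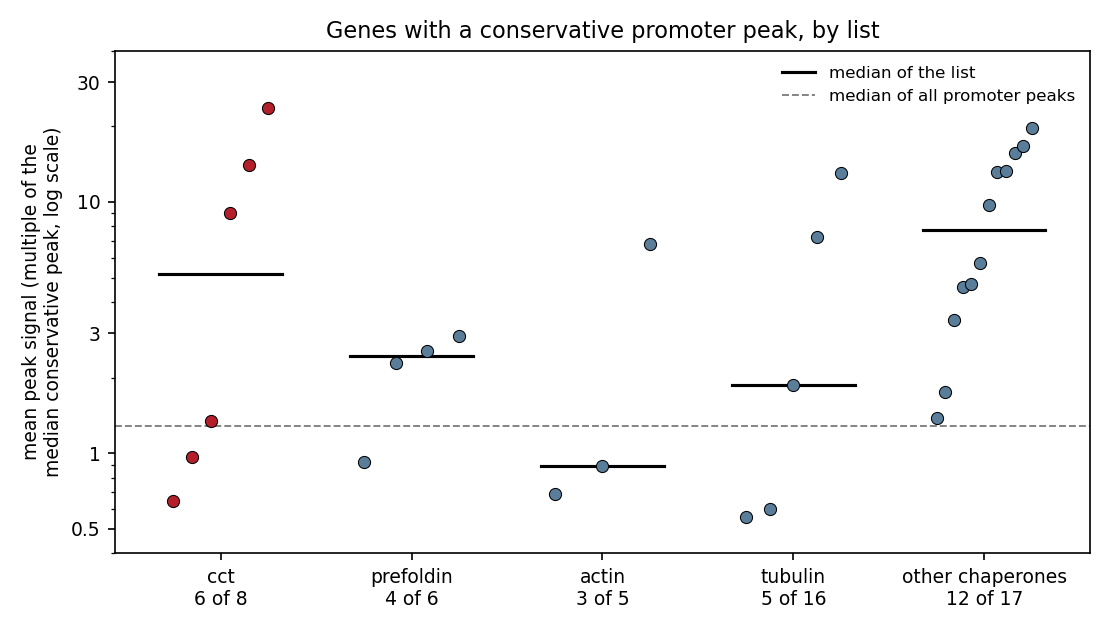
Mean signal of every gene with a conservative promoter peak (points), as a multiple of the median conservative peak on a log scale, for the cct genes and the related lists; bars are list medians and the dashed line the median of all promoter peaks (1.28). Under each list stands how many genes had such a peak; the cct peaks run from 0.643 to 23.6 and the other chaperones from 1.38 to 19.7.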

How the data were processed

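Per the labels, chromatin of 2 biological replicates was sonicated and immunoprecipitated. The sources used here do not give the aligner, peak caller or settings, and without read counts the depth per sample is unknown, so no counting interval was formed. The authors deposited 4 thresholded and 4 ranked peak lists on ce11: a conservative and a pooled list from both replicates and 1 per replicate. They give a signal value, a summit offset, a score up to 1000 that follows the IDR and, in the ranked lists, a deposited −log10 IDR. The lowest score of the thresholded lists was 830. The 4 signal columns per sample in the ranked lists of the series carry no sample name and were not used.

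Gene models were Ensembl release 115 on WBcel235, the assembly of ce11; 0 peaks ended beyond a chromosome. Each conservative peak was paired, per replicate, with the entry of that replicate's ranked list that overlapped it and had the closest summit. Its signals were divided by the replicate's median over the conservative peaks, of which 3860 had a value in both replicates. SDs rest on these 2 values; no test was run, since there is 1 group. Peak assignment was checked on simulated data. The members, lists, motifs and alternatives (other lists, windows, assignment, pairing and scaling) were chosen with earlier results of these data known. Named genes were all cct genes, genes sharing their peaks or lying within 2000 bp with a peak, members of the related lists with a summit, and the 3 promoter peaks most like that of cct-1; others (the neighbours and list members without a summit) were added for their position or absence. Python 3.11.15, numpy 2.4.6 and matplotlib 3.10.9 were used.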

Additional observations from a re-analysis of the deposited data

How the results depend on the processing

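No paired analysis was possible because there is 1 group. The count of 6 cct genes with a conservative promoter summit was 5 or 6 with the pooled list, a stricter signal, a wider or narrower window and either replicate's own list, and 1 when summits counted for the nearest gene alone. That rule, which gives each summit to a single gene, left 3 of the 5 tubulin genes and 8 of the 12 other chaperone genes. It left 3 of the 4 prefoldin genes and all 3 actin genes. Over all protein-coding genes it left 1939 of the 2636 with a conservative promoter summit. The actin count was 1 without replicate 2 and 3 without replicate 1. The cause was not tested. Motif windows with 150 bases on either side of the summit, which hold more letters, raised TTTGAA to 3 of 6 sites, TTCGAA to 1 and GAANNTTC to 3, against 54.9%, 23.1% and 17.7% of promoter peaks and 64.2%, 18.2% and 18.8% of all promoters. Of 35 alternative values of the single signals 10 moved beyond 1 SD, all of them under scaling by another median. The 35 include the values of each replicate alone, which could not move so far, since each of 2 values lies within 1 SD of their mean. Scaling multiplies all values of a replicate alike, so it could not change an order that both replicates share. Under each pairing the order was kept among the peaks with a value. At cct-2 the conservative peak of 153 bp was too short to meet the 50% reciprocal overlap with either replicate's peak, so it has no value there. The replicate summits lay at -302 and -315 bp from cct-2. Without read counts, how far depth limits the calls at cct-4 and cct-5 cannot be given.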
